A study of Mus musculus with 54 samples.

Results

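The messenger RNA levels of 10 circadian clock genes were followed after irradiation: Arntl, Clock, Npas2, Per1, Per2, Per3, Cry1, Nr1d1, Nr1d2 and Dbp. They were chosen by name, as known parts of the molecular clock, and all 10 were among the 13611 genes of the deposited expression table. The series measured polyadenylated RNA in 54 libraries, of which 40 came from C57B6 mice, with 10 libraries for each of thymus, spleen, large intestine and small intestine, and 14 came from NIH3T3, an established mouse fibroblast line. Irradiated mice and cells received 10 Gy of gamma rays. Each system had 1 untreated library at 0 h and 1 irradiated library per hour between 1 and 8 h, plus 1 at 24 h, and NIH3T3 had further hourly libraries between 9 and 12 h. The labels give neither the clock time of irradiation nor the age, sex or number of mice, and no unirradiated library was taken after 0 h. Hours after irradiation and hours of the day therefore cannot be told apart in comparisons of these genes that use the libraries of 1 to 12 h. The 24 h library matches the hour of irradiation in time of day only. Effects of handling or, in NIH3T3, of time in culture cannot be told apart from those of irradiation in any comparison.

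The circadian clock is a feedback loop of transcription that runs in nearly every cell. CLOCK, or its relative NPAS2, pairs with BMAL1, the product of Arntl, binds E-box sequences and drives the Per, Cry, Nr1d and Dbp genes. PER and CRY proteins then block that pair, the NR1D (REV-ERB) receptors repress Arntl through ROR elements, and DBP drives genes with D-boxes. In peripheral organs feeding and glucocorticoids set the phase, and Per1 is in addition quickly induced by glucocorticoid, cAMP and stress signals.

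The members lie on chromosomes 1 (Npas2, Per2), 4 (Per3), 5 (Clock), 7 (Arntl, Dbp), 10 (Cry1), 11 (Per1, Nr1d1) and 14 (Nr1d2), and all are protein-coding. Promoter sequences from 250 bases before to 50 after a transcription start were available from RefSeq (GRCm38.p6) for 9 members in 13 windows, and were searched on both strands for the sequences through which the loop acts. The E-box CACGTG was found for Cry1 and Per1, against 7.15% of all 32851 promoter windows. The D-box, TTATGTAA or TTACGTAA, was found for Per3 at 2 places, against 1.06% of windows. The ROR element core, TAGGTCA or TGGGTCA, was found for Arntl, against 6.45% of windows. The cAMP element TGACGTCA was in 1.79% of windows and in 0 of the members' windows. The 4 windows with a match are shown because they hold the loop's own letters, 5′ to 3′ on the gene's strand, with the matching letters in capitals. Per3 lies at chr4:151044616-151044915 (minus strand, matches at -205 and -158 from the start), Arntl at chr7:113207261-113207560 (plus, +31), Cry1 at chr10:85185005-85185304 (minus, -60) and Per1 at chr11:69098699-69098998 (plus, -166). A match is a description of these letters only.
Per3: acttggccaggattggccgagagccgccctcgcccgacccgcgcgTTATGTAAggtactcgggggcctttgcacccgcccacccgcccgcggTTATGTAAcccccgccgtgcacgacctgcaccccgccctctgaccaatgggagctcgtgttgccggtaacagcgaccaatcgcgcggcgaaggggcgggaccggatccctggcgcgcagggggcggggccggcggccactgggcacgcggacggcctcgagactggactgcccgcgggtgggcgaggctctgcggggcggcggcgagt
Arntl: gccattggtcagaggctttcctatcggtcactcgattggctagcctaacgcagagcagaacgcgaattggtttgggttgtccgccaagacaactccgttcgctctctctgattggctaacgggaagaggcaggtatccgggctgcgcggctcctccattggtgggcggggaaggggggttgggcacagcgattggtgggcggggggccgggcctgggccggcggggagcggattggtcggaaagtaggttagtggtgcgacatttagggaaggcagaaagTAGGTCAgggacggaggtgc
Cry1: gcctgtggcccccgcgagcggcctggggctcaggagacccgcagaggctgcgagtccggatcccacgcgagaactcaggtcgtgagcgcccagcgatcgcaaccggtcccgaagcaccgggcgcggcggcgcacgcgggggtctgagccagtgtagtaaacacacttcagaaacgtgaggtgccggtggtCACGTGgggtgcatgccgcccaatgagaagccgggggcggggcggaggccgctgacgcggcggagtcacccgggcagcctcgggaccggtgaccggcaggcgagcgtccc
Per1: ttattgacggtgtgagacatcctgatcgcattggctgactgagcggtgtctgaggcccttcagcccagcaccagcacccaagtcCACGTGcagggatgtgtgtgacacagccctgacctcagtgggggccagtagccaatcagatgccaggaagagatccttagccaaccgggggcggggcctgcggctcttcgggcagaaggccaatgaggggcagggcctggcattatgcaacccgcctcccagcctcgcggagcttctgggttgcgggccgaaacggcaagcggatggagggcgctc

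Levels are given in FPKM, a count of sequenced fragments divided by transcript length and by library size, so that genes can be compared with each other. Of the 13611 genes, those with a mean of at least 1 FPKM in a system were tested there. All 10 members passed in small intestine, large intestine and thymus, 9 passed in spleen (not Npas2) and 8 in NIH3T3 (not Npas2 or Per2). The response to radiation itself was present in each system. Of 4 p53-driven genes (Cdkn1a, Mdm2, Ccng1 and Phlda3), 4 rose in large intestine, spleen and thymus, 3 in NIH3T3 and 2 in small intestine over 1 to 8 h. The labelled tissues carried their defining markers, with summed levels of 41150 to 57100 FPKM for 5 enterocyte genes in small intestine, 7190 to 31413 for 5 colonocyte and 5762 to 16440 for 3 goblet genes in large intestine, and 1002 to 1950 for 4 fibroblast genes in NIH3T3. In spleen 4 erythroid genes summed to 443 to 37987 FPKM, and in large intestine 3 muscle genes to 472 to 2238.

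Some libraries held RNA of another organ or differed in cell content. In the 24 h thymus library, 5 enterocyte genes summed to 5297 FPKM (3.87 to 15.8 at the other hours) and 4 thymocyte genes to 46.5 (1564 at 0 h). Large intestine at 2 h held enterocyte genes at 19976 FPKM, at 1 h it had its lowest enterocyte (85.6) and colonocyte (7190) sums but a goblet sum of 13052, and at 0 h it held 3 keratinocyte genes at 27.6. Spleen at 6 h held 5 pancreas genes at 46235 FPKM, and at 0 h it held colonocyte genes at 124. In spleen 5 B cell genes fell from 2098 FPKM at 0 h to 276 at 24 h. In bulk samples, fewer cells of a type and less RNA per cell cannot be told apart. Depth is not known, and its estimate differed within a system by 1.87 times in small intestine and NIH3T3, 2.14 in large intestine, 2.38 in spleen and 4.13 in thymus, where 8 h and 24 h were shallowest.

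Small intestine had the highest mean level of 9 members, all but Arntl, and NIH3T3 had the lowest mean of 7. Dbp, a transcription factor of clock output, averaged 99.9 ± 28.5 FPKM in small and 36.4 ± 21.2 in large intestine, and 19.2 ± 16.8 in spleen and 9.83 ± 6.76 in thymus (SD over hours, n = 10 each), and 3.51 ± 1.46 in NIH3T3 (n = 14). Nr1d1 averaged 91.3 ± 27.9 FPKM in small and 54.8 ± 12.5 in large intestine, and 11.6 ± 7.51 in spleen, 11.5 ± 6.56 in thymus and 7.63 ± 1.61 in NIH3T3. For Nr1d1 every intestinal library was above every spleen, thymus and NIH3T3 library, while spleen and thymus overlapped. Nr1d2, its paralog, kept the same order, from 46.5 ± 10.2 FPKM in small and 35.4 ± 7.39 in large intestine through 18.2 ± 5.51 in spleen and 15.6 ± 7.31 in thymus to 7.89 ± 1.58 in NIH3T3. NIH3T3 lay below all other libraries for Nr1d2. Of the 40 neighbouring pairs in these orders over the 10 genes, 5 had ranges that did not overlap.

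The activators had different orders. Arntl was highest in thymus at 15.9 ± 6.17 FPKM, then 8.53 ± 7.19 in large intestine, 6.76 ± 2.46 in spleen, 5.55 ± 1.25 in NIH3T3 and 4.48 ± 1.94 in small intestine, and each neighbour overlapped the next. Clock averaged from 19.0 ± 1.41 FPKM in the small and 12.98 ± 2.26 in the large intestine to 6.33 ± 0.801 in spleen, 5.11 ± 1.46 in thymus and 4.71 ± 1.08 in NIH3T3. The intestinal ranges of Clock did not overlap those of spleen. Npas2 was at 9.58 ± 2.81 FPKM in small intestine, 5.04 ± 2.43 in large intestine and 2.29 ± 1.16 in thymus, but at 0.249 ± 0.135 in NIH3T3 and between 0 and 0.318 in spleen.

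Among the repressors, Per2 spanned the widest range, from 17.5 ± 4.91 FPKM in the small and 6.403 ± 4.11 in the large intestine through 2.60 ± 0.911 in spleen and 2.05 ± 1.06 in thymus to 0.440 ± 0.113 in NIH3T3. Per3 was also highest in the intestines, at 9.22 ± 2.17 FPKM in the small and 6.80 ± 2.11 in the large, followed by 3.15 ± 2.16 in thymus, 2.83 ± 2.04 in spleen and 1.81 ± 0.627 in NIH3T3. Per1 and Cry1 varied less between systems. Per1 averaged 15.7 ± 4.20 FPKM in small intestine, 11.1 ± 4.47 in thymus, 9.89 ± 2.57 in spleen, 9.08 ± 2.73 in large intestine and 4.08 ± 0.642 in NIH3T3. Cry1 averaged 10.5 ± 3.35 FPKM in small intestine, 9.65 ± 3.07 in thymus, 9.36 ± 3.95 in large intestine, 5.28 ± 1.009 in NIH3T3 and 5.02 ± 1.08 in spleen.

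**Figure D1:**
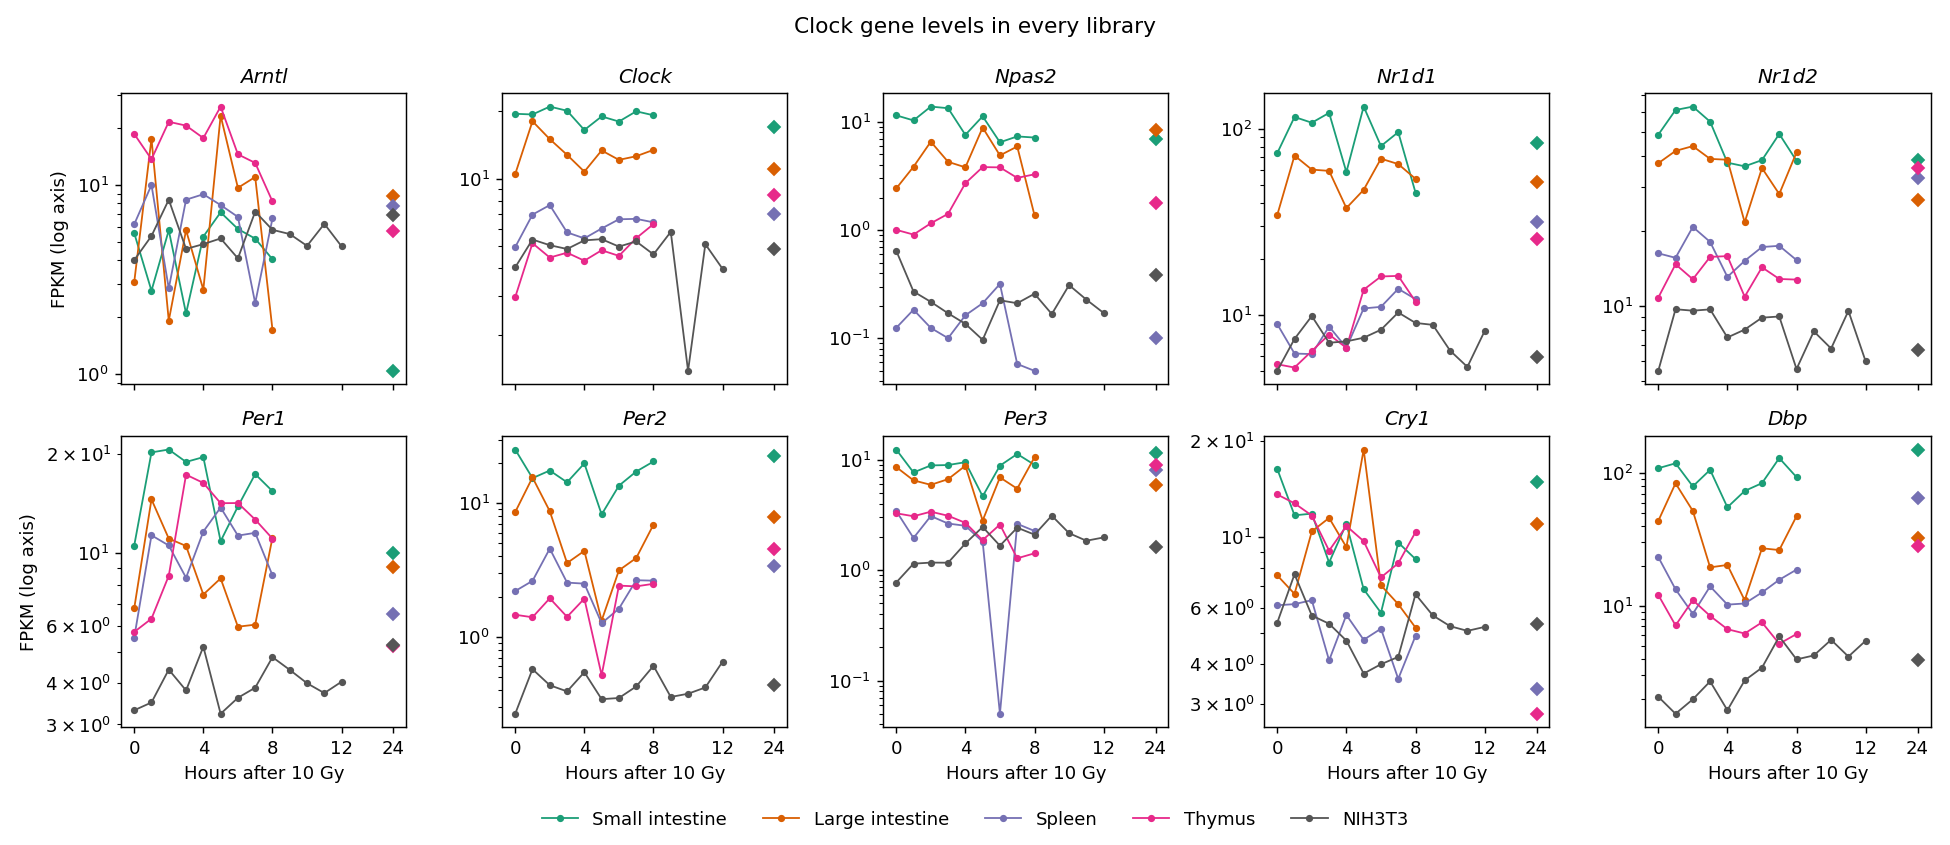
FPKM (log axis, values below 0.05 drawn at 0.05) of each clock gene against hours after 10 Gy, with 1 point per library, colours for the 5 systems and diamonds for 24 h. Small intestine has the highest mean for 9 of the genes, with ranges that overlap those of the next system. Arntl swings between 1.72 and 23.2 FPKM within large intestine.

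How far the members moved between hours also differed. Over 1 to 8 h the standard deviation of log2(FPKM + 1) of Arntl was larger than that of 92.6% of tested genes in small and 97.4% in large intestine, 92.8% in spleen, 91.8% in NIH3T3 and 81.6% in thymus. Large intestine Arntl stood at 17.5 FPKM at 1 h, 1.92 at 2 h, 23.2 at 5 h and 1.72 at 8 h, with large steps between neighbouring hours. Clock lay at the other end, at the 3.45 percentile in NIH3T3, 6.90 in small intestine, 8.54 in spleen, 15.04 in thymus and 35.8 in large intestine. Outside these hours, Clock in NIH3T3 was at 1.39 FPKM at 10 h, against 3.96 to 5.80 at all other hours. Dbp was the most variable member in NIH3T3 (98.4 percentile) and near the middle in thymus (54.3).

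The change after irradiation was asked first, by setting the average over the 8 hourly libraries from 1 to 8 h against 0 h. Each difference is a log2 fold change on the FPKM + 1 scale, which understates changes of low genes, followed by its standard error and limma's Benjamini-Hochberg adjusted p. In thymus 2 members rose, Per1 and Clock, and no other member passed in any system. The counts were 2 of 10 members in thymus, where 12.2% of all tested genes passed (8.29% as higher), 0 of 9 in spleen (8.68%), 0 of 10 in large intestine (1.48%), 0 of 10 in small intestine (0.316%) and 0 of 8 in NIH3T3 (4.47%). At an unadjusted p under 0.05, limma gave 2, 3, 1, 2 and 3 members in the same order. The median difference of the members was 0.23 in thymus, 0.02 in spleen, 0.25 in large and -0.26 in small intestine and 0.35 in NIH3T3, beside medians of all tested genes of 0.02, 0.02, 0.00, -0.02 and -0.02.

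Per1, the repressor that responds fastest to outside signals, was at 5.74 FPKM in thymus at 0 h. It was 6.30 and 8.51 at 1 and 2 h, 17.3, 16.3 and 14.2 at 3 to 5 h, 14.2, 12.6 and 11.04 at 6 to 8 h, and 5.18 at 24 h. All 8 irradiated libraries up to 8 h lay above 0 h, with the highest at 3 h. The difference was 0.95 ± 0.28 (adjusted p = 0.0283), and it did not pass without the 4 h library (0.89, adjusted p = 0.0508). In spleen Per1 went from 5.51 FPKM at 0 h to between 8.39 and 13.7 at 1 to 8 h, and in small intestine from 10.5 to between 10.8 and 20.6. All 8 libraries were above 0 h in both, already at 1 h, but neither difference passed: 0.85 ± 0.28 in spleen (adjusted p = 0.0615) and 0.63 ± 0.28 in small intestine (adjusted p = 0.702). In large intestine 6 of 8 libraries were above the 6.77 FPKM of 0 h, with 14.5 at 1 h the highest (0.37 ± 0.28, adjusted p = 0.62). In NIH3T3 Per1 moved between 3.23 and 5.24 FPKM with a difference of 0.22 ± 0.19 (adjusted p = 0.505).

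Clock rose in thymus from 2.96 FPKM at 0 h to between 4.31 and 6.28 at 1 to 8 h, and reached 8.48 at 24 h. All 8 libraries were above 0 h, and the difference was 0.58 ± 0.14 (adjusted p = 0.00821). In a fit of thymus alone it did not pass (adjusted p = 0.0712). Clock was also above 0 h in 8 of 8 libraries of large intestine (0.32 ± 0.14, adjusted p = 0.295) and spleen (0.31 ± 0.14, adjusted p = 0.184), and in 3 of 8 in small intestine.

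The remaining members did not pass. Cry1, a repressor that binds CLOCK and BMAL1, was below 0 h in all 8 small intestine libraries (16.3 FPKM at 0 h, 5.79 to 11.8 after) with a difference of -0.80 ± 0.28 (adjusted p = 0.452). Dbp was below 0 h in all 8 libraries of spleen (23.3 FPKM at 0 h, 8.70 to 18.7 after; -0.83 ± 0.36, adjusted p = 0.162) and thymus (12.1, then 5.17 to 11.03; -0.69 ± 0.36, adjusted p = 0.239). Nr1d1 was above 0 h in all 8 large intestine libraries (34.4 FPKM, then 37.5 to 71.6; 0.71 ± 0.36, adjusted p = 0.392). In NIH3T3 Nr1d1 was above the 5.02 FPKM of 0 h in all 8 (0.63 ± 0.20, adjusted p = 0.088). Since each comparison rests on a single 0 h library, an unusual 0 h library would move all 8 differences together.

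Genes known to be induced with Per1 were read beside it. Of 8 glucocorticoid-induced genes, which include Per1 itself, 5 rose in thymus over 1 to 8 h (Ddit4, Dusp1, Klf9, Per1 and Tsc22d3), 3 in spleen (Ddit4, Dusp1, Klf9), 2 in large intestine (Ddit4, Tsc22d3), 1 in small intestine (Ddit4) and 0 of 7 tested in NIH3T3. Of 7 immediate early genes, 4 rose in thymus (Fos, Fosb, Junb and Sik1), 2 of 6 in spleen (Junb and Sik1) and 0 in the intestines and NIH3T3. Of all tested genes, 12.2% passed in thymus (8.29% as higher), 8.68% in spleen, 1.48% in large intestine, 0.316% in small intestine and 4.47% in NIH3T3. At an unadjusted p under 0.05, limma gave 7, 6, 3, 5 and 2 glucocorticoid-induced genes in that order of systems. It gave 5, 3, 2, 0 and 0 immediate early genes in the same order. The medians of the glucocorticoid list were 1.12, 0.99, 0.89, 0.91 and 0.14 in thymus, spleen, large intestine, small intestine and NIH3T3, and those of the immediate early list 1.46, 1.58, 0.43, 0.22 and -0.11. Ddit4 is also known as a p53 target. In thymus Junb stood at 20.4 FPKM at 0 h, 18.9 at 1 h, 33.9 at 2 h and 80.2 at 3 h, when Per1 was at 5.74, 6.30, 8.51 and 17.3 FPKM, while Tsc22d3 had reached 84.7 FPKM from 36.3 by 1 h.

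**Figure D2:**
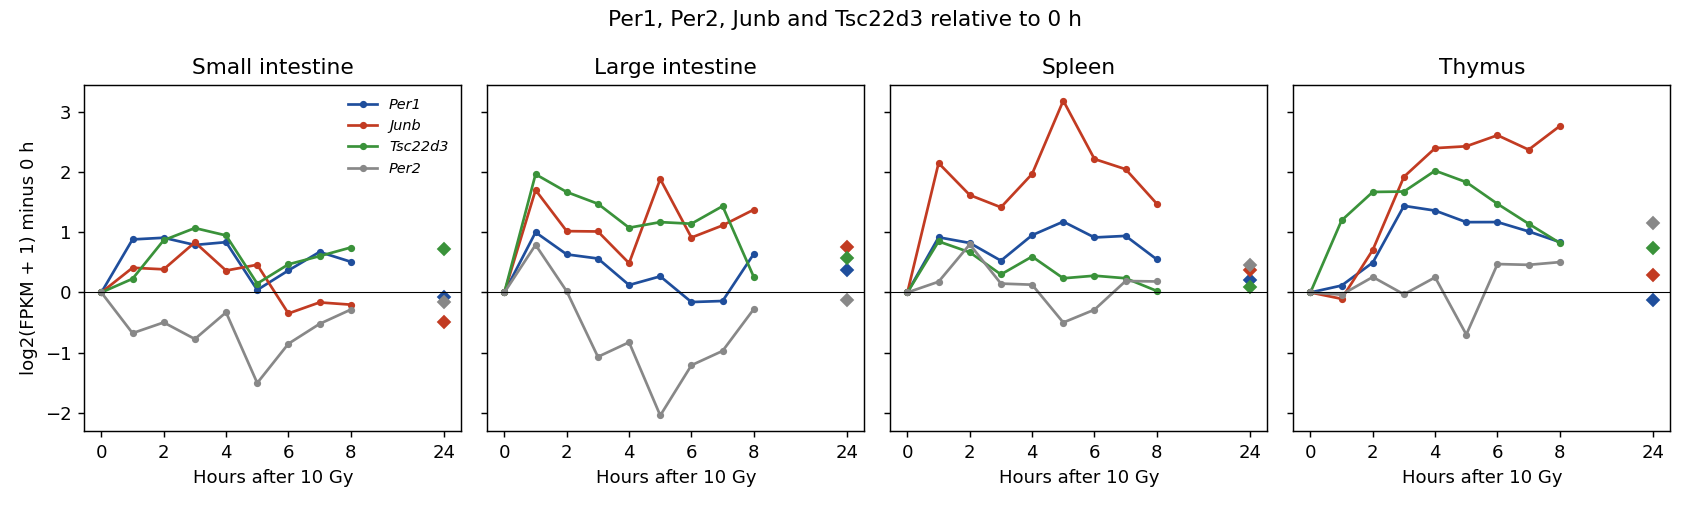
log2(FPKM + 1) minus its 0 h value for Per1, Per2, Junb (immediate early) and Tsc22d3 (glucocorticoid-induced) against hours after 10 Gy in 4 tissues, 1 point per library and diamonds for 24 h. Per1 lies above 0 in all 8 libraries up to 8 h in small intestine, spleen and thymus, and near 0 at 24 h, while Per2 dips at 5 h in every tissue.

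Over the 40 tissue libraries, centred within each tissue, the 5 genes of 9979 whose pattern was most like Per1 were Maff, Junb, Jdp2, Gdf15 and Csrnp1, with Pearson's r of 0.780, 0.779, 0.772, 0.763 and 0.761. Among members, r with Per1 ran from -0.37 (Per3) to 0.16 (Clock), with 0.03 for Per2. For Dbp the most alike were Siae, Pld4, Abhd14b, Gdpd1 and Cnpy2 (0.766 to 0.738), and Per3, Nr1d2 and Per2 followed at 0.643, 0.637 and 0.603 (ranks 55, 63 and 105). For Arntl they were Cdon, Lrch1, Prkacb, Tshz1 and Sun2 (0.705 to 0.605), and its r with Nr1d2 and Per2 was -0.44 and -0.42. These values are descriptions, since the points share libraries and tissues.

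Whether the clock genes moved within the first hours was tested as 6 to 8 h (3 libraries) against 1 to 5 h (5 libraries). Nr1d1 rose in thymus and Dbp rose in NIH3T3, and no other member passed. These were 1 of 10 members in thymus, where 32.1% of all tested genes passed (18.7% as higher), and 1 of 8 in NIH3T3 (2.3%, 0.857% as higher). The counts were 0 of 9 in spleen (27.8%), 0 of 10 in large intestine (0.498%) and 0 of 10 in small intestine (0.518%). At an unadjusted p under 0.05, limma gave 2, 1, 1, 2 and 2 members in thymus, NIH3T3, spleen, large intestine and small intestine. The members' medians were 0.02, 0.02, -0.08, -0.15 and -0.09, beside 0.00, 0.00, 0.02, 0.01 and -0.03 for all tested genes.

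Nr1d1 encodes REV-ERB alpha, the receptor that represses Arntl. In thymus it was at 5.23, 6.41, 7.86, 6.67 and 13.7 FPKM at 1 to 5 h and at 16.1, 16.2 and 11.8 at 6 to 8 h. The groups overlapped only through 5 h and 8 h, and the difference was 0.86 ± 0.25 (adjusted p = 0.00986). In spleen it was at 6.22, 6.18, 8.68, 6.68 and 10.9 FPKM and then at 11.1, 13.8 and 12.2. The spleen groups did not overlap, but the difference of 0.64 ± 0.25 did not pass (adjusted p = 0.0568). In small intestine 58.4 to 131 FPKM at 1 to 5 h was followed by 80.5, 95.6 and 45.4, a difference of -0.54 ± 0.25 (adjusted p = 0.391), and large intestine gave 0.20 ± 0.25 (adjusted p = 0.779). The change of Nr1d1 differed among the 4 tissues (limma F-test, adjusted p = 0.0151), as 1 of 9 members tested against 30.1% of all genes. Without the small intestine library of 8 h, which held the lowest value, that difference did not pass (adjusted p = 0.0642). Rag1, a thymocyte gene, was at 307 to 422 FPKM at 1 to 5 h and at 247, 248 and 176 at 6 to 8 h in the same thymus libraries, and the part of cell content in the Nr1d1 result was not tested.

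The library kit did not mark strand, and 263 exonic bases of Nr1d1 (8.55%) also belong to Thra on the opposite strand in the GENCODE vM21 annotation, as 539 of Dbp (18.0%) do to Sphk2. Reads from these bases cannot be told apart. For 6 to 8 h against 1 to 5 h, Thra changed by -0.38 ± 0.20 in thymus (adjusted p = 0.161), opposite in sign to Nr1d1. Sphk2 changed by 0.07 ± 0.11 in NIH3T3 (adjusted p = 0.768). The other members share no annotated exon with a gene of the table.

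Dbp in NIH3T3 was at 2.06 FPKM at 0 h, 1.54, 1.97, 2.69, 1.63 and 2.74 at 1 to 5 h, 3.42, 5.87 and 3.94 at 6 to 8 h, 4.22, 5.54, 4.14 and 5.45 at 9 to 12 h, and 3.92 at 24 h. The 1 to 5 h and 6 to 8 h libraries did not overlap, and the level stayed up to 12 h. The difference was 0.79 ± 0.16 (adjusted p = 0.0313). It did not pass without the library of 1 h, 2 h, 7 h or 8 h (adjusted p from 0.0603 to 0.125) or with all genes tested (0.0799). Per3, whose transcript is also driven through E-boxes, was at 0.771 FPKM at 0 h, 1.14 to 2.46 at 1 to 5 h and 1.66 to 2.42 at 6 to 8 h (0.29 ± 0.16, adjusted p = 0.339). The Dbp change in NIH3T3 minus the mean change in the tissues was 0.64 ± 0.26 (adjusted p = 0.239), and 0 of 8 members passed that test, by which 0.565% of all genes passed (1 member at an unadjusted p under 0.05). The rise of Dbp is therefore not shown to be particular to the cell line.

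Of the other members, Npas2 in thymus was at 0.909, 1.15, 1.41, 2.71 and 3.82 FPKM at 1 to 5 h and at 3.80, 3.04 and 3.28 at 6 to 8 h (0.63 ± 0.28, adjusted p = 0.0899). Cry1 in large intestine was at 6.64 to 18.8 FPKM at 1 to 5 h and at 7.06, 6.16 and 5.20 at 6 to 8 h (-0.72 ± 0.19, adjusted p = 0.0841). Npas2 in small intestine was at 7.59 to 13.8 FPKM and then at 6.47, 7.34 and 7.17, with no overlap between the groups (-0.59 ± 0.28, adjusted p = 0.408). Per2 in thymus was at 0.516 to 1.94 FPKM at 1 to 5 h and at 2.39 to 2.50 at 6 to 8 h, again with no overlap (0.53 ± 0.29, adjusted p = 0.175). In the tissues, differences of Arntl ran from -0.70 ± 0.58 in thymus to 0.18 ± 0.58 in small intestine, with the largest errors of any member there.

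Beyond the 10, 15 of 18 other clock regulators were in the table, of which 12 to 14 were tested in a system. Over 1 to 8 h against 0 h, 3 of 14 changed in thymus, where the repressors Bhlhe40 (1.20) and Nfil3 (1.82) rose and Timeless, a replication fork gene, fell (-1.27), against 12.2% of all tested genes. In spleen 2 of 14 changed, Bhlhe40 (1.30) and Timeless (-0.83), against 8.68%, and 0 changed in the intestines and NIH3T3. From 1 to 5 h to 6 to 8 h, Bhlhe40 (1.47), Bhlhe41 (1.16) and the kinase gene Csnk1d (0.26) rose and Csnk1e (-0.40) and Timeless (-1.03) fell in thymus, while Nfil3 (1.17) and Csnk1e (0.41) rose in spleen. These were 5 of 14 and 2 of 14, beside 32.1% and 27.8% of all tested genes, so neither count stood far above the share of all genes. The 8 clock output genes share Nfil3, Hlf and Tef with the regulators, and 7 of the 8 were tested in thymus and in spleen. Over 1 to 8 h Nfil3 and Noct (2.19) rose in thymus, where 12.2% of all tested genes passed. Nampt (0.92) rose in spleen (8.68%). Noct (1.68), Por (0.87) and Nampt (0.50) rose later in thymus (32.1%), and Nfil3 and Por (0.88) in spleen (27.8%). None of either list changed in the intestines or NIH3T3 in these comparisons. Of the immediate early genes, Junb (1.11) and Sik1 (0.71) rose later in thymus, Crem (1.70) rose and Sik1 (-0.98) fell in spleen, and Nr4a1 (-1.20) fell in NIH3T3, while of the glucocorticoid-induced genes Zbtb16 rose in small intestine. At an unadjusted p under 0.05, limma gave 3, 1 and 3 regulators and 0, 1 and 1 output genes over 1 to 8 h in small intestine, large intestine and NIH3T3, and 1, 0 and 1 regulators and 0, 0 and 1 output genes in the later comparison.

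The 24 h library was taken a day after irradiation, at the same point of a daily cycle as the hour of irradiation. Each contrast sets 1 library against 1 and shares the 0 h library with the earlier comparison, with the spread taken from the hourly windows. Nr1d1 and Nr1d2 rose in spleen and thymus, Dbp rose in spleen, and in thymus Clock rose and Cry1 fell. These were 3 of 9 members in spleen, where 20.8% of all tested genes passed (13.2% as higher), and 4 of 10 in thymus, where 45% passed (26.4% higher, 18.6% lower). None passed in small intestine (0 of 10, 0.184% of genes), large intestine (0 of 10, 0.253%) or NIH3T3 (0 of 8, 11%), with 0, 1 and 2 members at an unadjusted p under 0.05 by limma. The members' median difference was 0.46 in spleen and 1.16 in thymus, beside 0.09 and 0.15 for all tested genes. It was -0.14, 0.22 and 0.38 in small intestine, large intestine and NIH3T3, beside 0.00, 0.00 and 0.02.

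In spleen Nr1d1 was at 8.94 FPKM at 0 h, 6.18 to 13.8 at 1 to 8 h and 31.7 at 24 h. The 24 h value was the highest of the 10 libraries, and the difference from 0 h was 1.72 ± 0.48 (adjusted p = 0.0139). Thra, with its shared bases, went from 4.93 to 13.6 FPKM in these libraries (1.30 ± 0.39, adjusted p = 0.0208), so the share of opposite-strand reads in that rise was not separable. Nr1d2 was at 16.3 FPKM at 0 h, 13.1 to 20.7 at 1 to 8 h and 32.7 at 24 h (0.97 ± 0.34, adjusted p = 0.0464), and it did not pass in 16 of 44 alternative analyses (adjusted p up to 0.0586). Dbp was at 23.3 FPKM at 0 h, 8.70 to 18.7 at 1 to 8 h and 65.5 at 24 h (1.45 ± 0.48, adjusted p = 0.0357, or 0.0512 with a pseudocount of 0.1). Sphk2 stayed at 9.70 and 10.3 FPKM at 0 and 24 h (0.08 ± 0.22, adjusted p = 0.838). Cell type markers moved in the same libraries. From 0 h through 8 h to 24 h, the 5 B cell genes summed to 2098, 319 and 276 FPKM, the 4 erythroid genes to 20909, 12110 and 443, and the 4 fibroblast genes to 46.1, 77.9 and 223. All genes of these 3 lists passed at 24 h against 0 h, as lower for B cell and erythroid and as higher for fibroblast genes, and their part in the rises of Nr1d1, Nr1d2 and Dbp was not tested.

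In thymus Nr1d2 was at 10.8 FPKM at 0 h, 10.9 to 15.8 at 1 to 8 h and 35.8 at 24 h (1.64 ± 0.34, adjusted p = 0.000461). Nr1d1 was at 5.45, 5.23 to 16.2 and 25.7 FPKM (2.05 ± 0.48, adjusted p = 0.00141), and Clock at 2.96, 4.31 to 6.28 and 8.48 (1.26 ± 0.19, adjusted p = 1.13e-05). Cry1 was at 13.6 FPKM at 0 h, 7.47 to 12.8 at 1 to 8 h and 2.80 at 24 h (-1.94 ± 0.37, adjusted p = 0.000177). For each of these 4 genes the 24 h library lay outside all 9 others. Dbp (12.1 to 28.01 FPKM; 1.15 ± 0.49, adjusted p = 0.0575), Per2 (1.46 to 4.52; 1.16 ± 0.57, adjusted p = 0.101) and Per3 (3.26 to 8.92; 1.22 ± 0.64, adjusted p = 0.128) did not pass.

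The 24 h thymus library is the one with small intestine transcripts, and small intestine has high levels of these genes. Its 5 enterocyte markers stood at 6.39% to 13.03% of their 24 h small intestine level, with a median of 11.7%. Its 3 goblet genes summed to 1061 FPKM, against 6562 in small intestine at 24 h, a larger share than that median. Only the median of 11.7% was used below, and whether the results hold at a larger share was not tested. With that share of small intestine subtracted, an analysis chosen after seeing the data, Nr1d1 was left with 15.8 FPKM (difference 1.38, adjusted p = 0.023), Nr1d2 with 31.3 (1.45, 0.00146), Clock with 6.49 (0.92, 0.000436) and Cry1 with 1.06 (-2.83, 2.18e-06). All 4 passed, but subtraction can only lower a value, so the fall of Cry1 could not be lost. The remaining values were not scaled back to a full library and are therefore low. Nr1d1 was left below its 16.2 FPKM of 7 h. Dbp was left with 10.3 FPKM, and its difference turned from 1.15 to -0.21 (adjusted p = 0.755). Without that scaling, the sign of this small Dbp difference is not settled. Per2 was left with 1.86 FPKM (0.21, adjusted p = 0.784). Thymocyte genes were also nearly gone from that library, with Rag1 at 2.27 and Dntt at 3.79 FPKM against 314 and 527 at 0 h, and the part of cell loss in the 4 results was not tested.

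**Figure D3:**
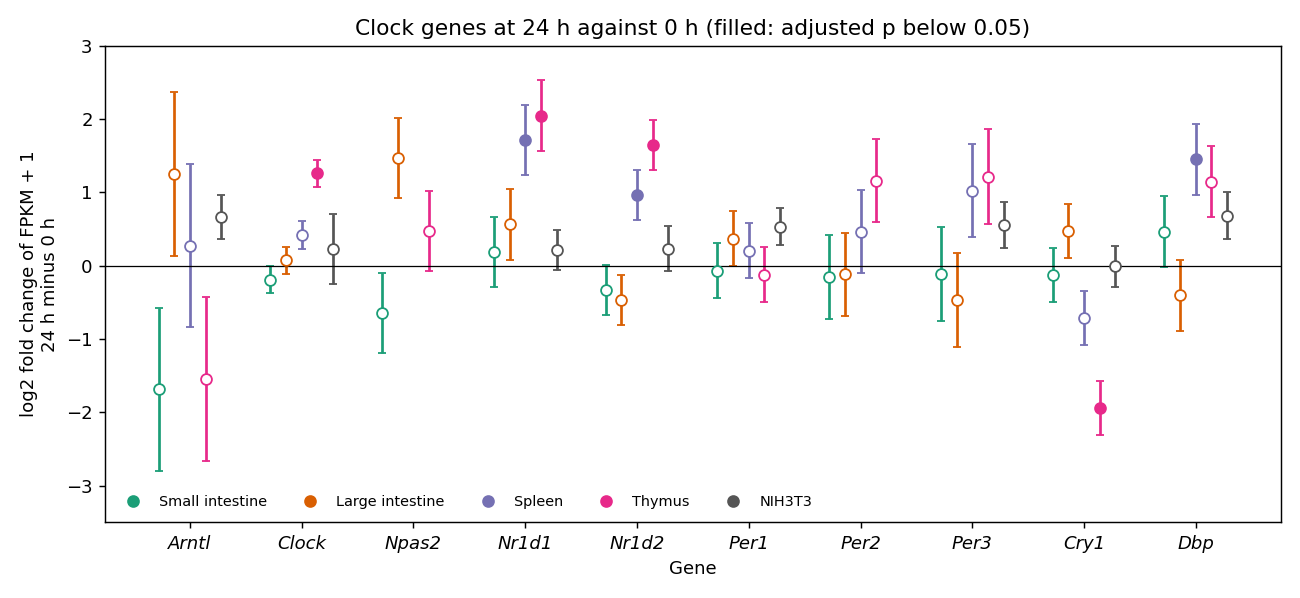
log2 fold change of FPKM + 1 at 24 h against 0 h for each clock gene, coloured by system, with limma standard errors as bars. Filled points pass an adjusted p of 0.05 and are Nr1d1, Nr1d2 and Dbp in spleen and Nr1d1, Nr1d2, Clock and Cry1 in thymus.

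Among the other clock regulators at 24 h in thymus, Bhlhe40 (1.62) and Rora (0.98) rose and Csnk1e (-1.04) and Timeless (-2.11) fell, where 45% of all tested genes passed. In spleen 2 of 14 changed, Hlf, a relative of Dbp (1.30), and Timeless (-0.92), below the 20.8% of all genes, and in NIH3T3 1 of 14, Hlf (1.21), beside 11%. Clock output genes, of which Hlf is in both lists, rose in spleen (Hlf, Nampt by 1.16 and Por by 1.44). These were 3 of 7, beside 13.2% of all tested genes as higher. In thymus Nampt (1.92) and Usp2 (1.47) rose, 2 of 7 beside 26.4%, so that count was near the share of all genes. In NIH3T3 Hlf rose and Nampt fell (-0.54), where 11% of all tested genes passed. The intestines had 0 in either list by limma, and at an unadjusted p under 0.05 small intestine had 2 regulators and 1 output gene and large intestine 0 of each. Of the glucocorticoid-induced genes Klf9 and Ddit4 were higher in spleen, Klf9 and Sgk1 higher in thymus, and Fkbp5 and Sgk1 lower in NIH3T3. Of the immediate early genes Fos was higher in thymus and Sik1 in NIH3T3.

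Phase was compared with a cosine of fixed 24 h period fitted to each gene and system, in which 0 h and 24 h share a phase. The tissues have no libraries between 9 and 23 h, so a fitted peak there is an extrapolation, and a fitted height can exceed any measured difference. Per1 in thymus passed (adjusted p = 0.000959) with a fitted peak at 5.03 ± 0.46 h, within the sampled hours. Npas2 in thymus passed (adjusted p = 0.0237, peak at 8.91 ± 3.3 h), and Dbp in spleen passed (adjusted p = 0.0281, peak at 16.4 ± 0.39 h). These were 2 of 10 members in thymus (26.5% of all genes), 1 of 9 in spleen (15.7%), 0 of 10 in large intestine (0.329%), 0 of 10 in small intestine (0.0439%) and 0 of 8 in NIH3T3 (0.924%). At an unadjusted p under 0.05, limma gave 4, 3, 2, 1 and 3 members. With a period of 20 h neither Per1 in thymus (adjusted p = 0.0967) nor Dbp in spleen (0.976) passed, and without the spleen library of 24 h Dbp did not (0.230). Npas2 did not pass without the thymus library of 1 h (0.0613) or 6 h (0.0549). The errors of the peaks hold only for a period of exactly 24 h. With periods of 20 h and 28 h, Per1 in thymus peaked at 5.66 ± 1.1 and 6.49 ± 1.6 h. Npas2 in thymus then peaked at 7.66 ± 1.4 and 12.98 ± 1.6 h, and Dbp in spleen at 13.8 ± 4.3 and 17.9 ± 0.61 h.

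The fitted peaks are given for all tissues as descriptions. Per1 had fitted peaks at 4.15 ± 0.78 h in small intestine and 4.75 ± 0.67 h in spleen, but neither fit passed. Its peak in large intestine was undefined (21.7 ± 10 h). Sphk2 and Thra, which share exon bases with Dbp and Nr1d1 but are not clock genes, had tissue peaks at 15.2 to 17.1 h or 2.65 to 4.51 h. All tissue libraries lie at 0 to 8 h and at 24 h, so similar fitted peaks among tissues do not show a shared phase. Arntl had fitted peaks at 3.73 ± 0.64, 1.92 ± 5.3, 3.89 ± 1.4 and 5.61 ± 2.7 h in thymus, spleen, large intestine and small intestine. Dbp had them at 18.2 ± 1.7, 16.4 ± 0.39, 16.6 ± 0.56 and 16.3 ± 0.81 h in the same order, and Per2 at 15.8 ± 0.68, 18.0 ± 4.3, 17.1 ± 0.63 and 16.4 ± 0.74 h. The fitted values lay in the sampled hours for Arntl and in the unsampled hours for Dbp and Per2 in each tissue. Of these fits only Dbp in spleen passed, and no Arntl or Per2 fit did, so an order of their peaks is not shown. The errors in spleen, 5.3 h for Arntl and 4.3 h for Per2, leave those peaks poorly placed. In NIH3T3, sampled to 12 h, Dbp peaked at 12.9 ± 1.5 h (adjusted p = 0.0596), Per3 at 8.75 ± 1.1 h (adjusted p = 0.0622) and Arntl nowhere (23.8 ± 33 h).

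No member's cosine was shown to differ among the 4 tissues: 0 of 9 passed the limma F-test, by which 11.1% of all genes passed, and 1 did at an unadjusted p under 0.05. That gene was Per1 (adjusted p = 0.0727). Since peaks are hours after irradiation and the clock time is not in the labels, they place no gene in the day or night.

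The libraries of 5 h stood out for Per2, a pattern described after its values were seen and given with no test. Per2 was at 8.25 FPKM at 5 h in small intestine against 13.5 to 25.3 at the other hours, 1.32 in large intestine against 3.15 to 15.6, 1.26 in spleen against 1.63 to 4.58 and 0.516 in thymus against 1.40 to 4.52. It was the lowest of 10 hours in all 4 tissues. Of 9980 genes tested in every tissue, 5 had their lowest value at 5 h in all 4, Per2 and Rbm3 among them. At 0 h, 1 h and 24 h there were 58, 16 and 21 such genes, and at other hours 0 to 3. Rbm3, a cold-inducible RNA-binding protein, was at 14.4, 14.9, 5.32 and 5.54 FPKM at 5 h in thymus, spleen, large intestine and small intestine, against lowest values of 14.5, 15.3, 7.36 and 6.38 at other hours. Cirbp, also cold-inducible, was at 63.2, 51.6 and 31.0 FPKM in spleen, large intestine and small intestine, above the other hours, and at 65.1 in thymus, below a highest value of 66.3.

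Other members moved at 5 h too. Arntl had its highest value there in small intestine (7.16 FPKM), large intestine (23.2) and thymus (25.9), and Npas2 in large intestine (8.86) and thymus (3.82). Nr1d1 also had its highest value at 5 h in small intestine (131), and Per1 in spleen (13.7). Per3 had its lowest in small intestine (4.65) and large intestine (2.81), and so did Nr1d2 (36.3 and 21.7). Large intestine had in addition its lowest Dbp (10.997 FPKM) and its highest Cry1 (18.8). Thus in large intestine the activators Arntl and Npas2 were highest and Per2, Per3, Nr1d2 and Dbp lowest in a single library. Clock was not extreme at 5 h in any tissue. In the same library of large intestine Fos was at 235 FPKM (others 20.6 to 96.3) and Egr1 at 61.3 (8.24 to 18.7), and in spleen Fos was at 68.1 (1.75 to 20.03) and Egr1 at 79.7 (4.67 to 26.4). Small intestine also had its highest Fos (300, others 115 to 281) and Egr1 (22.8, others 3.80 to 12.6) at 5 h, and thymus did not. In NIH3T3 Per2 at 5 h was within the 0.266 to 0.653 FPKM of all hours. The labels do not say whether tissues of 1 hour came from the same mouse, and a part of clock time, of the animals or of handling was not tested.

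**Figure D4:**
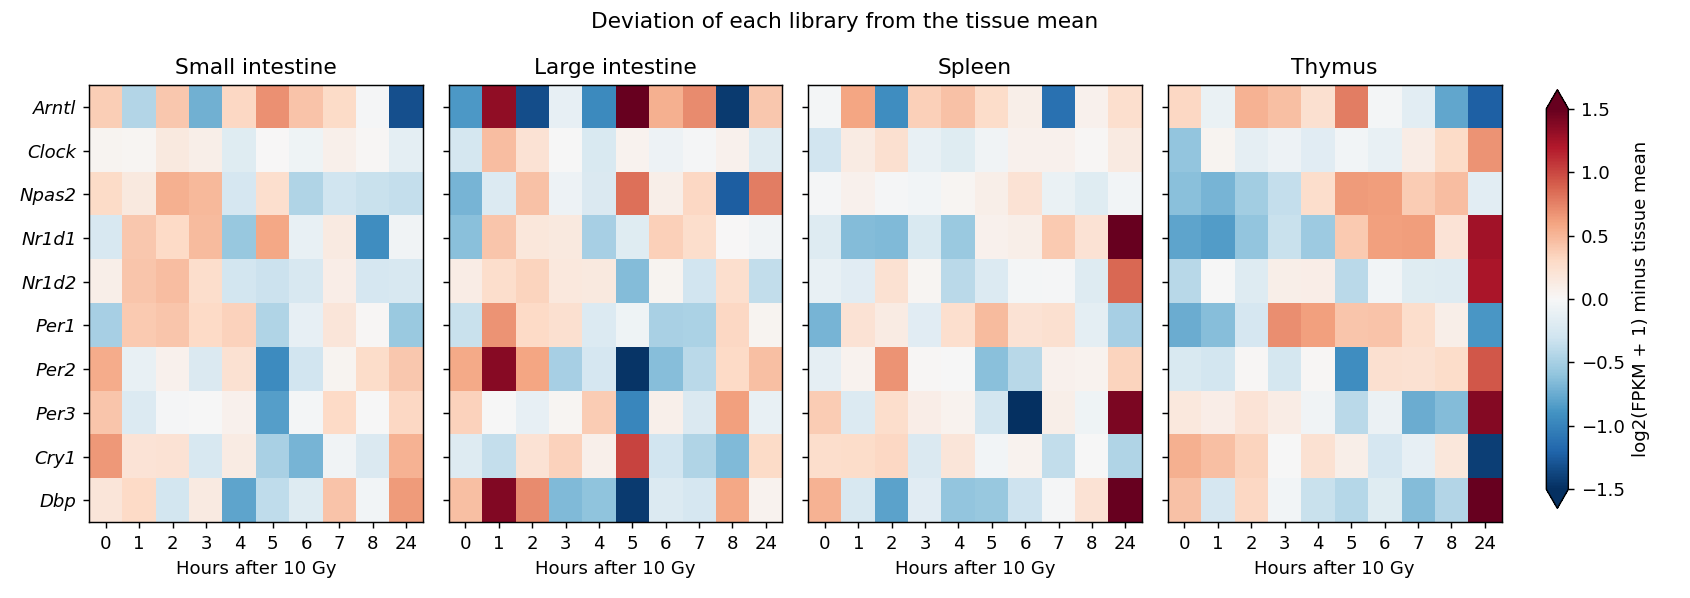
Deviation of log2(FPKM + 1) from the tissue mean (colour, limited to 1.5 either way) for each clock gene (rows) and hour after 10 Gy (columns) in 4 tissues. Per2 is low in the 5 h column of every tissue, and the 24 h column stands apart for Nr1d1, Nr1d2 and Dbp in spleen and thymus. The 24 h thymus library held small intestine RNA, and Dbp did not pass there.

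Leaving out the 5 h libraries, chosen after seeing the data, Nr1d1 rose from 1 to 4 h to 6 to 8 h in thymus by 1.06 (adjusted p = 0.00174). It also passed in spleen (0.76, adjusted p = 0.0176), as did Npas2 in thymus (0.82, adjusted p = 0.0254). In each case the 5 h library held the highest value of 1 to 5 h. That value was 13.7 FPKM for Nr1d1 in thymus (at most 7.86 at 1 to 4 h). It was 10.9 for Nr1d1 in spleen (at most 8.68) and 3.82 for Npas2 in thymus (at most 2.71). Leaving it out could therefore only enlarge these rises, so the added passes are no separate evidence for them. Without the 5 h libraries, the difference of Nr1d1 among tissues had an adjusted p of 0.00621. Per1 in thymus over the irradiated hours gave 0.92 (adjusted p = 0.0221) and Clock 0.59 (adjusted p = 0.0137).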

How the data were processed

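The authors deposited FPKM values for 13611 genes, per the labels from unstranded TruSeq libraries of polyadenylated RNA. Per the submitters' processing notes, tools were TopHat2 2.1.0 and Cufflinks 2.1.1 and the build was mm10; how genes were chosen or libraries scaled are steps not given in the sources used here. An FPKM value depends on every other gene of its library, so large changes of abundant genes move it. The deposited FPKM values were turned into log2(FPKM + 1), and genes with a mean of at least 1 FPKM were tested with limma 3.58.1 in R 4.3.3 (trend, two-sided, Benjamini-Hochberg, threshold 0.05), after the procedure was tested on simulated data. Windows were 0 h, 1 to 2 h, 3 to 5 h, 6 to 8 h, 24 h and, in NIH3T3, 9 to 12 h, with neighbouring hours as replicates. A single fit took all 40 tissue libraries (20 residual degrees of freedom), and a second took NIH3T3 (8). Single 0 h and 24 h libraries are assumed to vary like those within windows. Separate mice or cultures per library are not stated in the labels, so a p-value here rests on library-to-library spread, which may be technical. Total counts are unknown, so no counting interval was computed; relative depth was estimated from steps between low values.

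The members and lists (other clock regulators, clock output, glucocorticoid-induced, immediate early and irradiation check genes, and cell type markers) were chosen with earlier results of these data known. All members were named, and list genes past the threshold, up to 8 per comparison, and some results are not reported here. Alternatives were a pseudocount of 0.1, no filter, quantile normalization, separate fits, other periods (20 h and 28 h), a slope over hours, irradiated libraries alone, an hour block, leaving out each library, leaving out the 5 libraries with RNA of another organ or low epithelial genes, and, chosen after seeing the data, leaving out the 5 h libraries and subtracting small intestine from the 24 h thymus library. Promoters and positions come from RefSeq (GRCm38.p6), exon overlaps from GENCODE vM21. Figures were drawn with matplotlib 3.10.9.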

Additional observations from a re-analysis of the deposited data

Results flagged for a closer look

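The change of Nr1d1 from 1 to 5 h to 6 to 8 h differed among the 4 tissues by a limma F-test of the difference itself (adjusted p = 0.0151). It was 0.86 ± 0.25 in thymus, 0.64 ± 0.25 in spleen, 0.20 ± 0.25 in large intestine and -0.54 ± 0.25 in small intestine. The adjusted p ranged from 0.00121 to 0.0642 over 46 alternatives, and the highest came without the small intestine library of 8 h.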

How the results depend on the processing

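Counts of clock genes called are given as gene and system pairs out of 39 tested in the tissues and 8 in NIH3T3. For 1 to 8 h against 0 h the tissues had 2, and 1 in separate fits. For 6 to 8 h against 1 to 5 h they had 1, and 3 with quantile normalization, with separate fits, with a slope over 1 to 8 h and without the 5 h libraries. For 24 h against 0 h they had 7, and 11 in separate fits. Without the 5 libraries left out for RNA of another organ or low epithelial genes, 3 remained of 19 pairs, since large intestine and thymus could not be compared. The spleen library of 0 h, which held colonocyte genes, was kept in that comparison. The 24 h cosine gave 3, and 8 with quantile normalization, 1 in separate fits, 12 with a period of 28 h and 6 without 0 h. In NIH3T3, testing all genes turned 0 into 1 for 1 to 8 h against 0 h and 1 into 0 for 6 to 8 h against 1 to 5 h, and the cosine gave 0, 2 with a period of 20 h and 1 with 28 h. For the difference of cosines among tissues 0 of 9 became 1 with quantile normalization, without the 5 libraries and without 0 h, and 2 with 28 h. The causes were not tested. Leaving out 1 library at a time gave 1 to 3, 1 to 3, 6 to 8 and 2 to 8 for the 4 tissue comparisons in this order, 0 to 0, 0 to 1, 0 to 0 and 0 to 2 in NIH3T3, 0 to 1 for each difference among tissues, and 0 to 0 for NIH3T3 minus tissues. The largest cosine count came without the 0 h thymus library. Tissues share hours, and the hour was not taken as a pairing. Over all genes, same-hour libraries deviated together little (median r 0.04 over 48 pairs, 0.32 at most and -0.13 at least). The pairs of 1 h and 2 h repeat each other, since deviations were taken from the mean of these 2 libraries. An r over all genes cannot show whether single genes, such as Per2 at 5 h, deviated together. The highest median of any hour was at 5 h (0.148, at most 0.302). With the hour as a block, the count for the change among tissues was 1, and for cosines it went from 0 to 1 (Per1, adjusted p = 0.0471). Over single genes, 1764 values under alternatives stayed on their side of the threshold, 85 newly passed and 33 no longer passed, with 0 reversed among called genes. Thymus 8 h and 24 h were the shallowest libraries.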
